A study of Mus musculus with 3 samples.

Results

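The genes described here are 10 regulators of red cell transcription: Gata1, Gata2, Zfpm1, Klf1, Tal1, Lyl1, Lmo2, Ldb1, Nfe2 and Gfi1b. They were taken by name from the 15058 genes of the deposited tables, and all 10 were listed. The RNA came from erythroblasts, the nucleated precursors of red cells, sorted from mouse embryo blood at E10.5. All embryos carried a floxed allele of Drosha, whose enzyme releases microRNA hairpins from their primary transcripts. The Drosha-null library held CD71-positive, Ter119-high cells of Drosha fl/fl;cdh5-cre+ embryos, labelled as null for Drosha. The Ter119-low cKO library held CD71-positive, Ter119-low cells of Drosha fl/fl;cdh5-cre+ embryos, with a Drosha abundance labelled like that of wild type. The control library held CD71-positive, Ter119-high cells of embryos that were Drosha fl/fl or Drosha fl/+, labelled as wild type for Drosha abundance. The sort used Ter119, an antigen of maturing red cells, together with CD71, through which cells take up transferrin. Cre was driven by Cdh5, a gene of endothelial cells, so recombination depends on descent from cells in which that gene was active. Each library pooled 5 embryos, and each of the 3 groups had 1 library. No difference could therefore be set against a spread between pools, and no test between conditions was possible.

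GATA1 is the zinc-finger factor that erythroid cells need to mature, and it takes over from GATA2, which acts in progenitors, at many of the same sites. FOG1, the product of Zfpm1, binds GATA1 and brings in repressor complexes. KLF1 binds CACCC boxes in globin and other erythroid genes. TAL1, or its relative LYL1, pairs with an E protein on E-box DNA and is tied to GATA1 by the bridging proteins LMO2 and LDB1. NFE2, paired with a small Maf protein, activates globin and platelet genes, and GFI1B is a repressor that recruits the LSD1 demethylase and is needed in red cells and megakaryocytes.

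Scaled by TMM, Gfi1b was the single regulator with more RNA in the Drosha-null library than in the control beyond counting error; scaled by total counts, Gata1 and Zfpm1 were too. Tal1, Lyl1, Lmo2 and Ldb1, with Klf1 and Nfe2, stood below their control levels, while Gata1 and Zfpm1 lay close to the control. In the Ter119-low cKO library most regulators lay near the control. Levels of different genes are compared below as FPKM, the authors' counts per length and library size. Differences between libraries are given on the log2 scale, after TMM, a method that assumes most genes do not differ, and with 0.5 counts added. Each ratio has an exact 95% counting interval (Clopper-Pearson), which covers counting error only, since reads are not independent molecules. A gene was called higher or lower when its ratio reached 2-fold and its interval excluded no difference. Scaling by total counts, the alternative that most moved the values, shifted the median of all genes to 0.43 for Drosha-null against control, 0.33 for Drosha-null against Ter119-low cKO and 0.10 for Ter119-low cKO against control. In these bulk samples, fewer cells of a type and less RNA per cell cannot be told apart.

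The libraries were of similar size, with 9325814 counts in the Drosha-null, 9418474 in the Ter119-low cKO and 9497425 in the control library. Drosha itself had 122 counts in the Drosha-null, 244 in the Ter119-low cKO and 324 in the control library. It was lowest where the label gives it as null, and in the Ter119-low cKO library it also lay below the control (log2 ratio −0.49, interval −0.74 to −0.25). Counts over the whole gene include reads outside the deleted part. The summed level of 8 erythroblast markers was 141004 scaled CPM (counts scaled by TMM, as CPM) in the Drosha-null, 241169 in the Ter119-low cKO and 277931 in the control library, with Hba-x the most abundant in all 3.

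Tal1 and Klf1 were the most abundant of the 10 in the Ter119-low cKO and control libraries, and Gata2 was the least abundant in all 3. Tal1 was listed at 79.3 FPKM in the Drosha-null, 96.0 in the Ter119-low cKO and 93.6 in the control library. Klf1 was listed at 82.3, 92.6 and 90.3 FPKM in the same order of libraries. In each library both genes stood above at least 96.5% of the detected genes. Their levels per length could not be separated from each other in any library within counting error. Gfi1b reached 98.0 FPKM in the Drosha-null library, against 38.7 in the Ter119-low cKO and 40.2 in the control library. It was thus the most abundant regulator in the Drosha-null library, at rank 378 of 13890 detected genes, and lay behind Tal1 and Klf1 in the others, at rank 984 of 13348 in the Ter119-low cKO and 917 of 13273 in the control library. Per length, Gfi1b stood 1.19 times above Klf1 in the Drosha-null library (interval 1.10 to 1.29), while in the control library Klf1 stood 2.25 times above Gfi1b (2.04 to 2.47).

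Below these, Gata1 had 42.6 FPKM in the Drosha-null, 36.3 in the Ter119-low cKO and 36.2 in the control library. In the Drosha-null library Gata1 followed Gfi1b, Klf1 and Tal1 and lay above Nfe2, Ldb1 and Zfpm1, among which neighbours in the order could not be separated. In the control library Gfi1b, Ldb1, Gata1 and Nfe2 followed each other with no separable neighbours. Lyl1, Lmo2 and Zfpm1 formed the next such run there. Gata2 had 0.44 FPKM in the Drosha-null, 0.10 in the Ter119-low cKO and 0.36 in the control library. These FPKM values are scaled by total counts, so their differences between libraries include the shift of all genes given above.

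**Figure D1:**
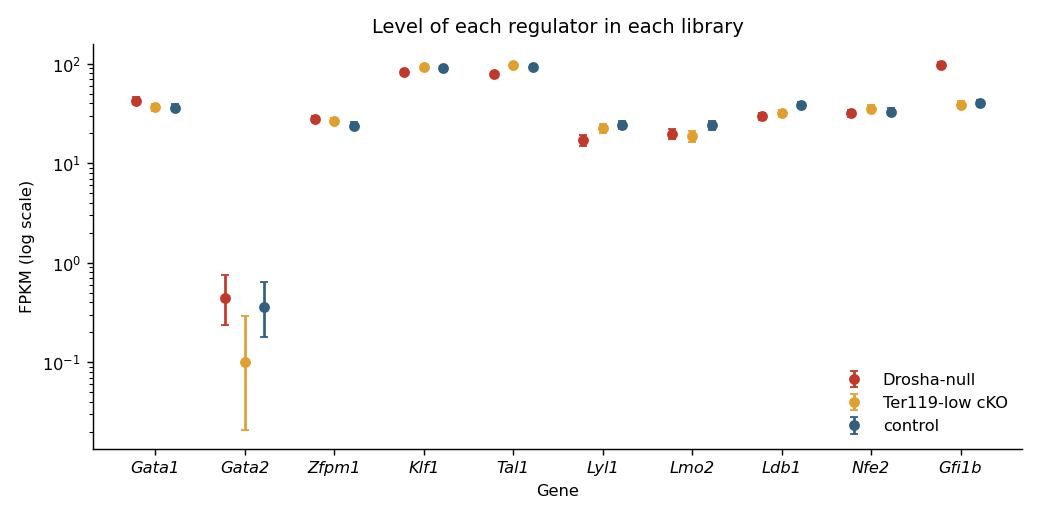
FPKM of the 10 regulators (log axis) in the Drosha-null, Ter119-low cKO and control libraries, 1 point per library with its 95% counting interval. Gfi1b stands at 98.0 FPKM in the Drosha-null library against 38.7 and 40.2 in the other two, and Gata2 lies under 1 FPKM in each library.

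The comparison of the Drosha-null library with the control keeps the Ter119-high gate constant, and the embryos differ in Cre and in labelled Drosha abundance. By the 2-fold rule 0 of the 10 regulators were called higher, against 12.4% of the 10769 genes tested, and 0 were called lower, against 7.73%. At 1.5-fold, 1 was called higher (Gfi1b) against 19.6% of genes, and 4 were called lower (Tal1, Lmo2, Ldb1 and Lyl1) against 17.6%. Counting every gene whose interval excluded no difference, 1 regulator lay above the control, against 29.1% of genes, and 8 lay below, against 30.8%. These numbers became 3 above and 5 below under total counts and the deposited FPKM. The median log2 ratio of the 10 was −0.53, beside −0.02 for all genes tested. Scaled by total counts, the 2 medians were −0.10 and 0.43.

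**Figure D2:**
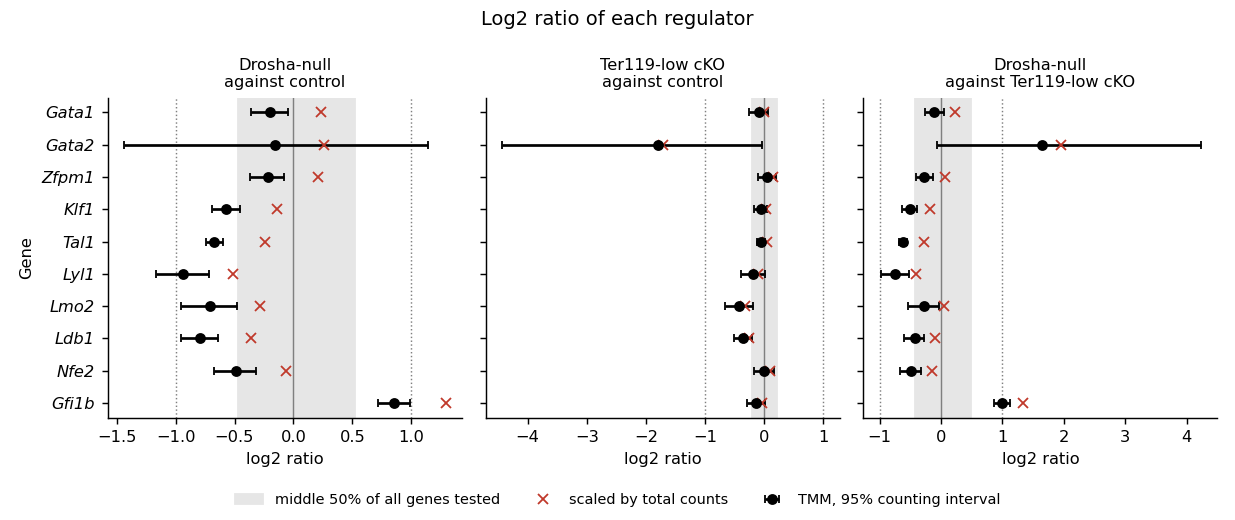
Log2 ratio of each regulator in the 3 comparisons, with black points and bars for TMM scaling and its 95% counting interval, red crosses for scaling by total counts, and a grey band for the middle 50% of all genes tested. Dotted lines mark 2-fold, and against the control Gfi1b lies at 0.85 and Lyl1 at −0.94 in the Drosha-null library; under total counts Gata1, Gata2 and Zfpm1 cross to the right of 0 there.

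Among the GATA factors and their partner, no gene was called. Gata1 (chrX:7959260-7978071, minus strand, GRCm38) had 729 counts, or 65.4 scaled CPM, in the Drosha-null library and 632 counts, or 75.2 scaled CPM, in the control library. Its log2 ratio was −0.20 (interval −0.36 to −0.05), and 39.5% of tested genes had a lower one. Scaled by total counts or by the deposited FPKM, the ratio of Gata1 turned positive, to 0.23 under total counts, which is still under the shift of all genes. Gata2 (chr6:88193891-88207032, plus strand) had 13 counts in the Drosha-null and 11 in the control library. The interval of its log2 ratio, −1.44 to 1.14 around −0.16 (0.26 under total counts), includes 2-fold differences either way, so at this depth no difference of Gata2 was detectable. Zfpm1 (chr8:122282141-122337251, plus strand) had 77.0 scaled CPM in the Drosha-null and 90.0 in the control library, a log2 ratio of −0.22 (−0.37 to −0.08) that was 0.21 under total counts. The proportion of Zfpm1 to Gata1 had overlapping intervals, with 1.18 Zfpm1 reads per Gata1 read in the Drosha-null library (1.07 to 1.30) and 1.20 in the control library (1.07 to 1.33).

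The promoter window of Gata1 from RefSeq (GRCm38.p6), 250 bases before to 50 bases after an annotated start, is shown because GATA1 is the hub of the set and the window carries CACCC-type letters, the kind KLF1 binds, close to the start. It lies at chrX:7967861-7968160 on the minus strand, with the CACCC-type matches in capitals. CACCC-type means the pattern CCNCNCCC on either strand, which need not hold the letters CACCC.
Gata1: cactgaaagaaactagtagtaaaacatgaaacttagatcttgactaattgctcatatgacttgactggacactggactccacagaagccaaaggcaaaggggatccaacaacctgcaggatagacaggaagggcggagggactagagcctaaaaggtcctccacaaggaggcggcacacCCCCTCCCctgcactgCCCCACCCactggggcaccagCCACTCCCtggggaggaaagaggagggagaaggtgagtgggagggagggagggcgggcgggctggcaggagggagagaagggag
The 3 matches stand 71, 55 and 34 bases before the start. No GATA match lies in this window.

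Klf1 was lower than the control by less than 2-fold. The gene (chr8:84901928-84905291, plus strand) had 1124 counts, or 101 scaled CPM, in the Drosha-null and 1260 counts, or 150 scaled CPM, in the control library. The log2 ratio was −0.57 (−0.69 to −0.45), lower than that of all but 20.6% of tested genes, and −0.14 under total counts. Klf1 lies 197 kb beyond Lyl1 on the same strand of chromosome 8. The window of Klf1 at chr8:84901732-84902031 (plus strand), shown for its single GATA match, has that match in capitals, as read on the opposite strand.
Klf1: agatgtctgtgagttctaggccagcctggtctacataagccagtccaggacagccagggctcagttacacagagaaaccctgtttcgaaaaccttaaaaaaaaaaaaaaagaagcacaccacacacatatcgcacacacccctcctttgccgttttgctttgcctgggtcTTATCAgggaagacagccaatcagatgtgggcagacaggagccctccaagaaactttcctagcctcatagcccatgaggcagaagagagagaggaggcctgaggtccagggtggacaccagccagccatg
The match begins 80 bases before the start, and an E-box match, left in lower case, stands 59 bases before it. Of the 8 regulators with a window, Klf1 alone had no match to the CACCC-type pattern CCNCNCCC in any of its windows. The shorter letters CACCC do occur in the Klf1 window, in lower case, but do not match that pattern.

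Tal1, Lyl1, Lmo2 and Ldb1, 4 genes of the LDB1 complex, stood lower in the Drosha-null library than in the control. Their intervals all lay below 0, as did those of 30.8% of all genes tested. Among the TAL1 complex partners described further below, 3 had intervals above 0 and 4 below. Lyl1 (chr8:84701457-84704715, plus strand) was the lowest of the 10, with 277 counts, or 24.9 scaled CPM, in the Drosha-null and 401 counts, or 47.7 scaled CPM, in the control library. Its log2 ratio of −0.94 (−1.17 to −0.72) was just short of the 2-fold rule, and 9.44% of tested genes lay lower. Under total counts it was −0.51. Tal1 (chr4:115056426-115071755, plus strand), the DNA-binding partner that LYL1 resembles, had 3029 counts, or 272 scaled CPM, in the Drosha-null and 3646 counts, or 434 scaled CPM, in the control library. Its log2 ratio was −0.67 (−0.74 to −0.60), and −0.24 under total counts.

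The bridging members lay between these. Ldb1 (chr19:46031570-46045214, minus strand), whose protein joins distant complexes into loops, had 54.8 scaled CPM in the Drosha-null and 95 in the control library, with a log2 ratio of −0.79 (−0.95 to −0.64). Lmo2 (chr2:103957986-103981878, plus strand), whose protein links TAL1 to LDB1, had 24.0 scaled CPM in the Drosha-null and 39.4 in the control library, with a log2 ratio of −0.71 (−0.95 to −0.48). Under total counts the ratios were −0.36 for Ldb1 and −0.28 for Lmo2. Ldb1 had 2.28 reads per Lmo2 read in the Drosha-null (1.97 to 2.64) and 2.41 in the control library (2.12 to 2.75), and these intervals overlapped.

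Nfe2 (chr15:103248212-103258403, minus strand) lay lower by a similar size to Klf1. The authors' estimated counts were 509.25 in the Drosha-null and 540.43 in the control library. Nfe2 was the only regulator of the 10 with fractional counts, and why they are fractional was not tested. Its scaled CPM was 45.7 in the Drosha-null and 64.3 in the control library, a log2 ratio of −0.49 (−0.67 to −0.32), which was −0.06 under total counts.

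Gfi1b (chr2:28609450-28621982, minus strand) went the other way. It had 1550 counts, or 139 scaled CPM, in the Drosha-null library and 646 counts, or 76.9 scaled CPM, in the control library. The log2 ratio was 0.85 (0.72 to 0.99), a ratio of 1.81 (1.65 to 1.99), under the 2-fold rule. It exceeded that of 84.0% of tested genes, and 12.4% of tested genes were called higher, so a ratio of this size was common in the comparison. Under total counts the log2 ratio was 1.29, and the authors' deposited table gives 1.29 for its FPKM. The window of Gfi1b at chr2:28621933-28622232 (minus strand) is shown because Gfi1b is the regulator that stands apart, with GATA and CACCC-type matches in capitals.
Gfi1b: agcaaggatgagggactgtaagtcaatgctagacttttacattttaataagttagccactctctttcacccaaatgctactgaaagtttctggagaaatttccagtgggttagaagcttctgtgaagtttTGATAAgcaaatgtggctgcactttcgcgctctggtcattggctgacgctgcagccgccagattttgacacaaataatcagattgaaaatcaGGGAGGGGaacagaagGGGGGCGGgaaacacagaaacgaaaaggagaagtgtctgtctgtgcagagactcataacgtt
The GATA match begins 120 bases before the start, and the CACCC-type matches (CCNCNCCC), both on the opposite strand, stand 28 and 12 bases before it. The letters CACCC further upstream, left in lower case, do not match that pattern.

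**Figure D3:**
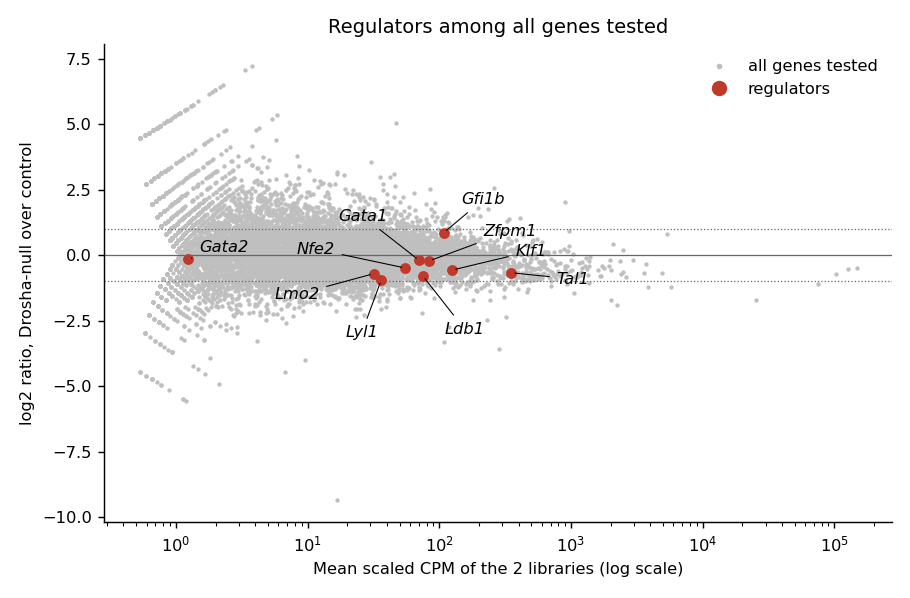
Log2 ratio of Drosha-null over control (TMM scaling) against mean scaled CPM of both libraries (log axis), with grey points for all 10769 genes tested and red points for the 10 regulators; dotted lines mark 2-fold. The red points lie inside the grey cloud, with Gfi1b at 0.85 and the other 9 between −0.94 and −0.16, of which Gata1, Gata2 and Zfpm1 are above 0 under total counts.

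Ratios between 2 genes of the same library need no scaling between libraries. Gfi1b had 2.13 reads per Gata1 read in the Drosha-null library (1.95 to 2.33), against 0.989 in the Ter119-low cKO (0.884 to 1.11) and 1.02 in the control library (0.915 to 1.14). Against Klf1, Gfi1b had 1.38 reads per read in the Drosha-null library (1.28 to 1.49), 0.486 in the Ter119-low cKO (0.440 to 0.535) and 0.513 in the control library (0.466 to 0.564). By both measures the Drosha-null library stood apart from the other two, whose intervals overlapped. Tal1 had 10.9 reads per Lyl1 read in the Drosha-null (9.67 to 12.4), 9.97 in the Ter119-low cKO (8.96 to 11.1) and 9.09 in the control library (8.20 to 10.1). The Drosha-null and control intervals of this pair overlapped. Overlap of separate intervals does not show that ratios are alike, and differences of these ratios between libraries were not tested. Tal1 exceeded Lyl1 by less when the counts were divided by length, with FPKM ratios of 4.67, 4.26 and 3.89 in the same order of libraries. The pairs with Gfi1b and the pairs of Zfpm1 with Gata1 and Ldb1 with Lmo2 were chosen after their values were seen.

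The switch pair, Gata1 over Gata2, had 56.1 reads per read in the Drosha-null library (32.6 to 106), 209 in the Ter119-low cKO (71.3 to 1018) and 57.5 in the control library (31.9 to 116). Per length the same ratios were 96.9, 363 and 101. Gata1 thus far outweighed Gata2 in all 3 libraries, and the 3 intervals overlapped because Gata2 had 13, 3 and 11 counts.

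**Figure D4:**
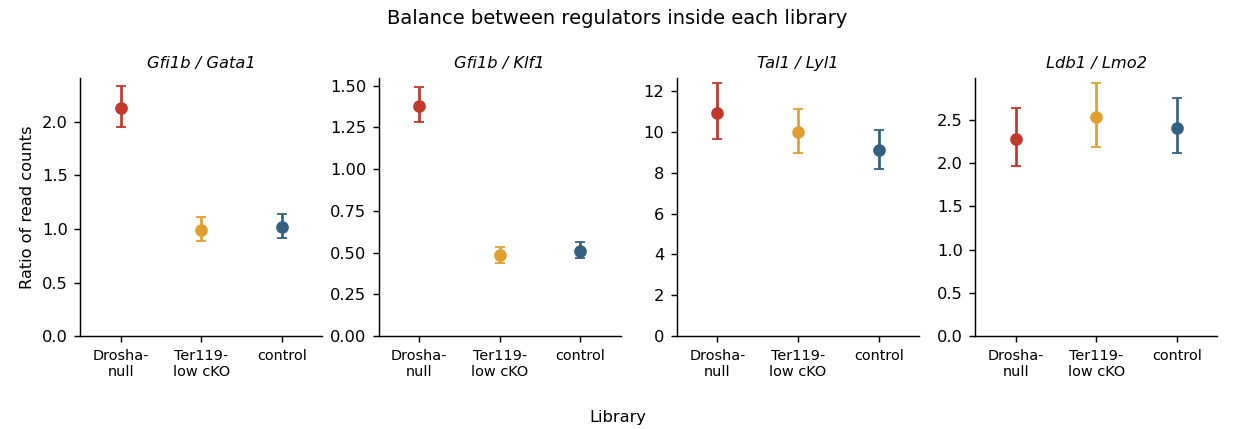
Ratio of read counts between pairs of regulators inside each library, with 1 point per library and its 95% counting interval. Gfi1b over Gata1 is 2.13 in the Drosha-null library against 0.989 in the Ter119-low cKO and 1.02 in the control library. Tal1 over Lyl1 and Ldb1 over Lmo2 have overlapping intervals in the Drosha-null and control libraries, which does not show that the ratios are alike.

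The second comparison sets the Ter119-low cKO library against the control, from which it differs in both genotype and gate, and these cannot be told apart. It shares its control with the first comparison. Of the 10 regulators, 0 were called higher, against 2.90% of the 10591 genes tested, and 1 was called lower (Gata2), against 2.74%. At 1.5-fold the counts were again 0 and 1, against 5.13% and 4.90% of genes. Intervals excluded no difference for 0 regulators above the control, against 13.5% of genes, and for 3 below, against 14.2%. The median of the 10 was −0.12, beside 0.00 for all genes.

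Gata2 had 3 counts in the Ter119-low cKO and 11 in the control library. The ratio was 0.289 with a counting interval of 0.0461 to 0.974, and under total counts the interval included no difference, which ended the call. Ldb1 and Lmo2 were the other regulators whose intervals lay below 0. Ldb1 had 74.1 scaled CPM in the Ter119-low cKO and 95 in the control library (log2 ratio −0.36, −0.51 to −0.21). Lmo2 had 29.3 scaled CPM in the Ter119-low cKO and 39.4 in the control library (log2 ratio −0.43, −0.67 to −0.19), and 13.2% of tested genes lay lower than Lmo2. Both were thus also lower here, by less than 1.5-fold.

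The other 7 regulators had intervals that included no difference. Gfi1b had 69.7 scaled CPM in the Ter119-low cKO and 76.9 in the control library, a log2 ratio of −0.14 (−0.30 to 0.02). Lyl1 had a log2 ratio of −0.19 (−0.40 to 0.01) and Gata1 one of −0.09 (−0.26 to 0.07). Tal1 (−0.06, −0.13 to 0.01), Klf1 (−0.06, −0.18 to 0.05) and Nfe2 (0.00, −0.17 to 0.17) had 416, 144 and 64.2 scaled CPM in the Ter119-low cKO library, against 434, 150 and 64.3 in the control library. Zfpm1 had a log2 ratio of 0.05 (−0.10 to 0.19). The signs of Gata1, Klf1, Tal1 and Nfe2 turned under total counts, all staying close to 0.

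The third comparison sets the Drosha-null against the Ter119-low cKO library, which share their genotype label but differ in gate and in labelled Drosha abundance. It uses the same Drosha-null library as the first. Of the 10 regulators, 0 were called higher, against 10.8% of the 10795 genes tested, and 0 were called lower, against 5.89%. At 1.5-fold, 1 was called higher (Gfi1b) against 18.2% of genes, and 2 were called lower (Tal1 and Lyl1) against 14.8%. Intervals excluded no difference for 1 regulator above, against 27.4% of genes, and for 7 below, against 29.4%. Under total counts and the deposited FPKM there were 3 above and 3 below, so the lean to lower values was lost. The median of the 10 was −0.36, beside −0.02 for all genes.

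Gfi1b had 139 scaled CPM in the Drosha-null library, against 69.7 in the Ter119-low cKO library. The ratio of 1.99 (1.82 to 2.19) was just below the 2-fold rule, and scaling by DESeq2 size factors or by total counts put it past the rule. Lyl1 had 24.9 scaled CPM in the Drosha-null library, against 41.8 in the Ter119-low cKO library (log2 ratio −0.75, −0.98 to −0.52). Tal1 had 272 and 416 scaled CPM in the same order (−0.61, −0.68 to −0.55), and was the most precisely measured of the 10. Klf1 had 101 scaled CPM in the Drosha-null library, against 144 in the Ter119-low cKO library (−0.51, −0.63 to −0.39).

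Nfe2 (−0.49, −0.67 to −0.32) and Ldb1 (−0.43, −0.60 to −0.27) had somewhat smaller ratios. Lmo2 was at −0.28 (−0.54 to −0.03), or 0.05 under total counts. Zfpm1 was at −0.27 (−0.41 to −0.13), or 0.07 under total counts. Gata1 was at −0.11 (−0.26 to 0.05), and its sign turned under total counts. Gata2 had 13 counts in the Drosha-null library, against 3 in the Ter119-low cKO library, a ratio of 3.15 with an interval of 0.952 to 19.0.

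Genes that these regulators are known to activate were taken as lists. Of 16 erythroid genes known to be activated by GATA1 and TAL1, all tested, 5 were called lower in the Drosha-null library than in the control and 0 higher, against 7.73% and 12.4% of all genes. Under total counts 2 were called lower, against 2.7% of all genes. The median was −0.76, or −0.33 under total counts, where all genes stood at 0.43. Among the 5 were Slc25a37, the mitochondrial iron importer (log2 ratio −1.90), Ahsp, which stabilises free alpha-globin (−1.70), Hemgn, a nuclear erythroid protein (−1.42), and Trim10 (−1.02). Slc25a37 had 10429 counts in the Drosha-null, 28821 in the Ter119-low cKO and 29361 in the control library. Tfrc, which encodes CD71, was at −0.95 and missed the rule. In the Ter119-low cKO library 0 of the 16 were called either way, against 2.9% of all genes higher and 2.74% lower, with a median of −0.07. Against the Ter119-low cKO library, the Drosha-null library had 5 called lower, against 5.89% of all genes, and 0 higher, against 10.8%. The median was −0.75. Under total counts 2 were lower in that comparison, against 2.79% of all genes.

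Of 15 genes known to be activated by KLF1, 11 were tested. In the Drosha-null library 2 were called lower than in the control, against 7.73% of all genes, and 0 higher, against 12.4%. Under total counts and the deposited FPKM 0 were called lower, against 2.7% and 3.05% of all genes. Under totals without ribosomal RNA and the 10 most abundant genes 1 was, against 5.09%. The median was −0.66 (−0.22 under total counts). The 2 genes were Slc4a1, the anion exchanger band 3 (−1.21), with 25880 counts in the Drosha-null and 45014 in the control library, and E2f2, a cell cycle factor (−1.03). Ank1, which encodes ankyrin of the membrane skeleton, was at −0.23, or 0.20 under total counts. In the Ter119-low cKO library 0 of the 11 were called, with a median of 0.00, and the Drosha-null library against the Ter119-low cKO library had 2 lower, 0 higher and a median of −0.66; under total counts 0 were lower and 1 higher.

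Of 11 genes of the progenitor programme that GATA2 is tied to, 8 were tested. In the Drosha-null library 5 were called higher than in the control, against 12.4% of all genes, and 0 lower, against 7.73%, with a median of 1.10. With a filter of 5 CPM, which leaves fewer genes, 3 were called higher, against 9.48% of all genes. Runx1, a master factor of blood emergence, had 836 counts in the Drosha-null, 120 in the Ter119-low cKO and 80 in the control library (log2 ratio to the control 2.97, 2.65 to 3.33). Hhex, a homeobox factor of blood and endothelial precursors, had 92, 16 and 16 counts (2.09, 1.34 to 2.98), and the kinase gene Lyn had 107, 38 and 40 (1.0, 0.48 to 1.57). Cd34 (1.25) and the ETS factor gene Fli1 (1.19) rested on 26 and 25 counts in the Drosha-null library and 8 each in the control library. Kit, the stem cell factor receptor that GATA2 sustains, had 6 counts in the Drosha-null, 15 in the Ter119-low cKO and 12 in the control library. Gata2 itself, given above, had no detectable difference in the same comparison. In the Ter119-low cKO library 0 of the 6 tested were called higher than in the control, against 2.9% of all genes. There 1 was called lower, against 2.74%, namely Myb, with 0 counts against 11. Against the Ter119-low cKO library, the Drosha-null library had the same 5 called higher, against 10.8% of all genes, and Kit lower, against 5.89%, with a median of 1.51. Under total counts 7 were called higher, against 18.7% of all genes, and 0 lower, against 2.79%. Endothelial cells also express several genes of this list, Cd34, Fli1 and Hhex among them. Endothelial markers summed to 17.4 scaled CPM in the Drosha-null, 6.40 in the Ter119-low cKO and 7.62 in the control library, and their part in the result was not tested.

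Partners of the regulators had ratios of both signs. Of 10 matched TAL1 complex partners, 0 were called in the Drosha-null library against the control (median −0.08). Of all genes, 12.4% were called higher there and 7.73% lower. Under total counts 1 was called higher, against 23% of all genes, and the median was 0.55. Ssbp3, which stabilises LDB1, was at −0.47 and the E-protein gene Tcf12 at 0.18. In the Ter119-low cKO library Ssbp4, on 21 counts against 8, was called higher (1.26), as were 2.9% of all genes. Of 7 tested NF-E2 partners and relatives, 0 were called in the Drosha-null library, against 12.4% of all genes higher and 7.73% lower. The list median was 0.10, with Nfe2l2 at 0.10 and Nfe2l1 at 0.25. Intervals lay above 0 for 2 of the list, against 29.1% of all genes, and below 0 for 2, against 30.8%. Those below were the small Maf genes Mafk (−0.49) and Mafg (−0.55), named after their values were seen. Under total counts they were at −0.06 and −0.12, and the list median was 0.53.

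Of 18 corepressors of FOG1 and GFI1B, 1 was called higher, against 12.4% of all genes, and 2 lower, against 7.73%, in the Drosha-null library than in the control (median −0.16). Under total counts 2 were higher, against 23% of all genes, and 1 lower, against 2.7%. Rcor3, a CoREST protein gene, was at 1.18 on 58 counts against 19. Mbd3, of the NuRD complex that FOG1 binds, had 153 counts in the Drosha-null, 327 in the Ter119-low cKO and 330 in the control library (−1.51, −1.80 to −1.24), and Ctbp1 was at −1.06. The most abundant of these genes, Rbbp7 (−0.23) and Chd4 (−0.15), turned positive under total counts, to 0.20 and 0.29. Of 8 coactivators of GATA1 and KLF1, 1 was called higher, against 12.4% of all genes (2 under total counts, against 23%). The gene called under TMM was the acetyltransferase gene Kat2b (1.62, 1.28 to 1.98). It had 352 counts in the Drosha-null, 105 in the Ter119-low cKO and 86 in the control library. Smarca4, the ATPase gene of a chromatin remodeller, was at 0.21. In the Ter119-low cKO library 0 of the genes in these 2 lists were called, against 2.9% of all genes higher and 2.74% lower. Against that library, Rcor3 (1.20), Mbd3 (−1.42), Ctbp1 (−1.07) and Kat2b (1.42) were called in the Drosha-null library. Of all genes, 10.8% were called higher there and 5.89% lower.

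**Figure D5:**
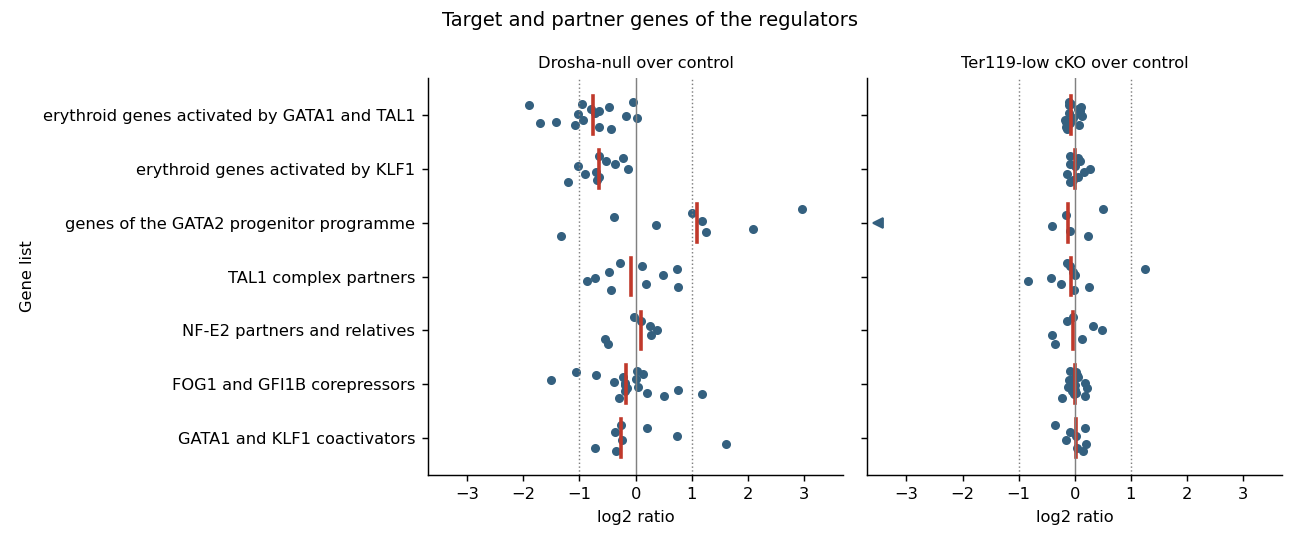
Log2 ratios of tested genes in 7 lists of targets and partners, for Drosha-null over control (left) and Ter119-low cKO over control (right), with TMM scaling, 1 point per gene, red bars for list medians and dotted lines for 2-fold. The left panel has medians of −0.76 and −0.66 for the targets of GATA1 and TAL1 and of KLF1 and 1.10 for the GATA2 programme; the arrowhead in the right panel is Myb, off the axis with 0 counts against 11.

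GFI1B, NFE2 and GATA1 also act in megakaryocytes, so markers of other cells are given beside them. The 7 matched of 10 megakaryocyte markers summed to 19.5 scaled CPM in the Drosha-null, 19.5 in the Ter119-low cKO and 17 in the control library. Itga2b had 126, 96 and 79 counts in that order of libraries, Tubb1 had 40, 50 and 42, and Gp9 had 11, 19 and 14. Gp1ba, with 39, 5 and 3 counts, was called higher in the Drosha-null library than in the control, and the defining marker Pf4 had 0, 4 and 4 counts. These markers did not all go one way, and their part in the level of any regulator was not tested. Of the mast cell list, Cma1 alone was matched, with 0, 1 and 0 counts.

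Macrophage markers summed to 4.85 scaled CPM in the Drosha-null, 2.69 in the Ter119-low cKO and 5.36 in the control library, led by Lyz2 (27, 18 and 22 counts), Cd68 (13, 5 and 17) and Csf1r (8, 1 and 3). Of the endothelial list, Egfl7 had 32, 20 and 12 counts, Cdh5 32, 16 and 12, and Kdr 26, 9 and 22. Pecam1, with 55, 4 and 3 counts, and Tek, with 25, 1 and 4, were called higher in the Drosha-null library than in the control (3.61 and 2.12). Cardiac muscle markers summed to 26.5, 6.29 and 8.81 scaled CPM, led by Ttn (181, 42 and 37 counts), Actc1 (86, 9 and 19) and Tnnt2 (20, 0 and 16). The endothelial and cardiac sums were thus highest in the Drosha-null library, as Gfi1b was, and their part in the level of any regulator was not tested. Erythroblast markers, given above, were lowest there, led by Hba-x with 869310 counts in the Drosha-null, 1077084 in the Ter119-low cKO and 1083439 in the control library.

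Promoter windows in RefSeq were found for 8 of the 10 regulators, 12 windows in all; Lmo2 and Nfe2 had no entry. Exact matches were sought on both strands. The GATA letters were AGATAA or AGATAG and also TGATAA or TGATAG. The E-box was CANNTG, the CACCC type was CCNCNCCC, and the NF-E2 core was TGAGTCA or else TGACTCA. The first set was found for 4 regulators (Gfi1b, Klf1, Tal1 and Ldb1), in 33.3% of the 12 windows, beside 29.8% of all 32851 windows and 19.4% of the 14975 windows of genes in the tables. CACCC-type letters were found for 7 regulators, in 83.3% of their windows, beside 49.5% of all windows and 67.1% of those of genes in the tables. In runs of G or C such matches overlap each other, as in Gata2 and Lyl1. E-boxes were found for 7 regulators, in 58.3% of their windows, beside 72.3% of all windows and 64.8% of those of genes in the tables. The NF-E2 core was found for 0, beside 5.20% of all windows and 3.79% of those of genes in the tables. These matches describe letters in a window and are not binding sites.

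MicroRNAs were not measured here, so only the letters of seed matches can be set beside the ratios. Of 7 microRNA families known in blood cells, 5 had a 7-base match (to seed bases 2 to 8) in the annotated 3' UTR of at least 1 regulator (GENCODE M21, GRCm38). miR-223-3p matched Klf1, Tal1 and Lmo2, beside 9.25% of 14069 genes with a 3' UTR. This family is shown because it is the one that matched the most regulators, with the seed of the microRNA and the matches in the 3' UTRs in capitals.
miR-223-3p: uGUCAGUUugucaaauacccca
Klf1: cccagatcaaaAACTGACcagaagaccat
Tal1: tgggaagtcccAACTGACcctaggctggc
Lmo2: ctagccatagtAACTGACaagattagtgg
In the Klf1 3' UTR the match starts at base 94 of 352, in that of Tal1 at base 138 of 3030 and in that of Lmo2 at base 236 of 784. The match of Lmo2 alone is followed by A, the 8-base form. All 3 genes were lower in the Drosha-null library than in the control, at −0.57, −0.67 and −0.71 (−0.14, −0.24 and −0.28 under total counts). Of the 10 regulators, 9 had ratios below 0 there (6 under total counts), and a link to the matches was not tested.

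The miR-92a and miR-25 seed matched Gata2 and Lmo2, beside 7.53% of genes, and miR-144-3p matched Gata2, beside 13.3%. The microRNAs are shown with their seeds in capitals, because miR-144 is produced with miR-451a from an erythroid transcript that GATA1 activates.
miR-92a-3p: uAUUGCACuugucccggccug
miR-25-3p: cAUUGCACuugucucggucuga
miR-144-3p: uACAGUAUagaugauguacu
miR-451a: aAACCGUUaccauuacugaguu
The miR-17 and miR-20a seed matched Tal1, beside 14.2% of genes, and let-7 matched Gata1, beside 10.4%. For miR-451a and for miR-15 and miR-16, 0 regulators had a match, beside 2.20% and 24.1% of genes. Gfi1b, whose 3' UTR has 575 bases, had a match for 0 of the 7 families, as did Zfpm1, Nfe2, Ldb1 and Lyl1. The 3' UTRs of these last genes have 60, 229, 1541 and 408 bases, beside a median of 1174 for all genes with a 3' UTR. Shorter 3' UTRs leave less room for a match.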

How the data were processed

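Total RNA of 3 sorted erythroblast libraries was sequenced, and the groups follow the labels. The deposited tables, of 14640 and 14300 genes, each set a cKO library beside the same control. Per the file headers, the authors gave expected counts (estimated reads per gene) and FPKM, which divides them by length and library size. The authors also deposited log2 ratios of FPKM. For the aligner, counter, strand use and genome build, the sources used here give no name. Joining on gene ID gave 15058 genes, with 0 differing control counts, and expected counts were rounded.

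Depth was 9325814, 9418474 and 9497425 counts for the Drosha-null, Ter119-low cKO and control libraries. TMM factors (edgeR 4.0.16, R 4.3.3) were 1.19, 0.946 and 0.885. A gene was tested when it had at least 1 CPM in one of both libraries, and a call took a 2-fold ratio with a counting interval excluding 1 (Python 3.11.15, SciPy 1.17.1). A floor of 3 counts for genes at 0 was not used in the ratios and calls given here. It entered only a further median of each list, which is not reported. Ratios of genes at 0 rest on the small count added to every gene, as for Myb at −4.56 in the Ter119-low cKO library against the control. With 1 library per group no model across conditions was fitted. The procedure was tested on simulated counts. Alternatives changed scaling (DESeq2 1.42.0 size factors among them), prior count, filter, gene length and fold.

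The regulators and lists were chosen with earlier results of these data known. The genes named are all 10 regulators, Drosha, the 2 most abundant genes of each list with its called gene of largest ratio, the 3 most abundant markers of other cells, and the 3 genes nearest in pattern to Gata1, Klf1 and Tal1 among those at 50 or more scaled CPM. A few genes under this rule are not reported here. Where a list had 5 or fewer calls, these were named too, after their values were seen. Kit, Pf4, Gp1ba, Pecam1 and Tek were also named after their values were seen.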

Additional observations from a re-analysis of the deposited data

How the results depend on the processing

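Gfi1b decided the count of regulators called higher in the Drosha-null library against the control. The count was 1 in place of 0 under total counts (23% of all genes higher) and deposited FPKM (22.8%). It was also 1 under totals without ribosomal RNA and the 10 most abundant genes (16%), length classes (12%) and a 1.5-fold rule (19.6%). The 1.5-fold rule also gave 4 lower in place of 0, against 17.6% of genes. The median of −0.53 became −0.10 under total counts and FPKM, −0.36 under the reduced totals and −0.32 with length classes. For the Ter119-low cKO library against the control, the 1 lower (Gata2) became 0 under total counts and with a filter of 5 CPM. For Drosha-null against Ter119-low cKO, the number higher became 2 under total counts, the reduced totals and FPKM, and 1 under DESeq2 size factors, length classes and the 1.5-fold rule, which gave 2 lower. That median became −0.02 under total counts and FPKM. These scalings shift all genes together; the cause of the other differences was not tested. Tal1 over Lyl1 became 4.67, 4.26 and 3.89 per length in the Drosha-null, Ter119-low cKO and control libraries. In the control, 3 regulators changed place when counts were divided by mean length. With 8-base sites, miR-144-3p, miR-17 and let-7 matched 0 regulators, and miR-223-3p and miR-92a 1 each. Of the other main values 68 moved little; of the ratios of single regulators and the counts of list genes called, 860 moved little and 133 moved. No paired analysis was possible because each group had 1 library. Depth limits Gata2 (3 to 13 counts) most.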

Other observations

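Among 1825 other genes at 50 or more scaled CPM in all 3 libraries, those closest in pattern to Gata1 included Eif4a1 and Acaca, at Euclidean distances of 0.0022 and 0.0103 on the centred log2 scale over 3 libraries. Eif4a1 encodes a translation initiation helicase. Closest to Klf1 were Hmgb2, a chromatin protein gene (0.0114), Phb2 (0.0129) and Btf3 (0.0168). Closest to Tal1 were Eif5, another translation initiation factor (0.0087), Clns1a (0.0100) and the kinesin gene Kif15 (0.0118). With 3 points per gene, many genes lie this close.

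Relatives of the regulators were nearly silent. Nhlh1, the most abundant of the 8 matched, had 11 counts in the Drosha-null, 4 in the Ter119-low cKO and 11 in the control library. Gata6 had 4, 1 and 0 counts, Gata3 1, 0 and 1, Gata4 0, 1 and 0, and Gfi1, the close relative of Gfi1b, 2, 0 and 0. Gata3, Gata4 and Gfi1 were named after their values were seen.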
